A study of Homo sapiens with 4 samples.

Results

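The genes described here are 8 genes of cholesterol synthesis and its feedback control: HMGCS1, IDI1, FDPS, FDFT1, SQLE, LSS, DHCR7 and INSIG1. They were chosen by symbol for their place in the pathway, with earlier results of these data known. All 8 were found among the 62443 genes of the expression table. The 4 RNA-seq libraries were made from HGC-27, a cell line of human gastric carcinoma. In 2 of them the cells had received GLUP, a synthetic peptide built to link molecules of the transcription factor TEAD4, at 10 μg/ml, and the other 2 were controls. The methods of the study name the peptide's stocking buffer as the control and a treatment of 48 h, its results a treatment of 12 h, and the labels list none for the controls. All cells grew in medium with fetal bovine serum, and everything here comes from a single cell line. The study describes its RNA samples as biological replicates, and the labels give 2 per group. The p-values thus rest on the spread within 2 pairs of libraries, which limma moderates toward the spread of other genes at similar levels.

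Cells build cholesterol from acetyl-CoA. HMGCS1 acts at the entry, on the way to mevalonate, IDI1 and FDPS assemble farnesyl diphosphate, FDFT1 and SQLE make squalene and its epoxide, LSS closes the sterol ring, and DHCR7 acts at the last steps. The pathway is under feedback: when sterols in the endoplasmic reticulum run low, SCAP escorts the SREBP transcription factors to the Golgi, where they are cleaved and released to switch on genes of sterol synthesis and uptake. INSIG1 holds SCAP back when sterols are plentiful and is itself an SREBP target.

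The values are FPKM, the fragments of a gene scaled by its length and by the size of its library. The libraries sum to between 909735 and 949919 FPKM, and their depth is unknown, so no counting error can be given. The 2 controls were less alike (Pearson r = 0.933 across the 7588 genes averaging 1 FPKM or more) than the 2 GLUP libraries (r = 0.986), and these genes are not independent replicates. Control replicate 1 was closer to GLUP replicates 1 and 2 (r = 0.952 and 0.957) than to control replicate 2. Control replicate 2 was the furthest from GLUP replicates 1 and 2 (r = 0.873 and 0.886), so by this measure the controls did not stand together. Most genes stood lower with GLUP, and on the log2(FPKM + 1) scale used for every test here the 7588 genes had a median difference (GLUP minus control) of −0.36. Of the epithelial markers, CDH1 and EPCAM were at or near 0, no higher than 0.124 FPKM. KRT8, KRT18 and KRT19 were between 0.764 and 2.25 FPKM, with both GLUP libraries above both controls for all 3, as for 17.5% of all genes tested. Their log2 fold changes of 0.51, 0.57 and 0.29 became 0.21, 0.30 and −0.24 with the trend of the values with transcript GC content removed. Here and below, that removal also takes out the overall shift of each library. The mesenchymal marker VIM stood between 293 and 387 FPKM. ZEB1, another, was at 7.05 and 19.2 FPKM in control replicates 1 and 2 and 2.88 and 2.92 FPKM with GLUP, and CDH2 was at most 0.0508 FPKM. The leukocyte markers CD14, CD3E and PTPRC did not exceed 0.0394 FPKM, the endothelial marker CDH5 and the hepatocyte marker ALB were listed at 0, and APOA1 was at most 0.746 FPKM. Of the fibroblast markers, DCN was at 20.1 to 41.3 FPKM, COL1A1 at 2.97 to 6.90 FPKM and COL1A2 at 0.246 to 0.443 FPKM. None of these markers had an adjusted p under 0.05, and their part in the results was not tested. A lower FPKM in bulk RNA cannot tell fewer cells with a transcript from less of it per cell.

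Promoter sequences from RefSeq (GRCh38.p14) are shown for 5 of the 6 genes whose GLUP and control libraries did not overlap. This does not set the genes apart, since only 32.8% of all genes tested overlapped. The sequences are shown because SREBP works at such promoters together with the factor NF-Y and with Sp1. Each sequence is the 250 bases before an annotated start site, read 5′ to 3′ on the gene's strand, and where RefSeq lists several starts it is the window with the most matches. Capitals mark the NF-Y box CCAAT and the GC box GGGCGG on either strand. No window was found for FDFT1 and SQLE.
HMGCS1 promoter, chr5:43313413-43313662, minus strand: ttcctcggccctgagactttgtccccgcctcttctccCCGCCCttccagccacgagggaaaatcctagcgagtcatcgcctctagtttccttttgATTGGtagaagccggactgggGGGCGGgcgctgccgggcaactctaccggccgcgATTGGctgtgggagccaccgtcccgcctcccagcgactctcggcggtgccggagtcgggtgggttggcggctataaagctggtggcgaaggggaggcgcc
IDI1 promoter, chr10:1048887-1049136, minus strand: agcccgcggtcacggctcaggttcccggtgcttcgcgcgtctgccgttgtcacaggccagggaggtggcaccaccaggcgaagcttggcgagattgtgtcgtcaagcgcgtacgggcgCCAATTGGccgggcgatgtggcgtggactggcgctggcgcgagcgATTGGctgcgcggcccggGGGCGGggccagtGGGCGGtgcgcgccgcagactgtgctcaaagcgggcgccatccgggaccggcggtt
INSIG1 promoter, chr7:155297628-155297877, plus strand: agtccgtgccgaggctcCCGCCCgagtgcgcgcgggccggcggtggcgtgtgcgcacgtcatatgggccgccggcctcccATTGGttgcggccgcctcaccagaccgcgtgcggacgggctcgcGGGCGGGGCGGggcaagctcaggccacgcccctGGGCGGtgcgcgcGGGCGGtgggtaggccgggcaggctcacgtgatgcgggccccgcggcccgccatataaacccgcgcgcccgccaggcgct
LSS promoter, chr21:46228775-46229024, minus strand: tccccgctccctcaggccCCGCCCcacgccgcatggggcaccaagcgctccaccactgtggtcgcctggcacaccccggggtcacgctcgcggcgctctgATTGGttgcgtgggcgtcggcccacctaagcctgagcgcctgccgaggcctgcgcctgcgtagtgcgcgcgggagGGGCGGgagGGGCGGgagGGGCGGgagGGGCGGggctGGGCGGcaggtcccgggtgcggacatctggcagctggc
DHCR7 promoter, chr11:71448394-71448643, minus strand: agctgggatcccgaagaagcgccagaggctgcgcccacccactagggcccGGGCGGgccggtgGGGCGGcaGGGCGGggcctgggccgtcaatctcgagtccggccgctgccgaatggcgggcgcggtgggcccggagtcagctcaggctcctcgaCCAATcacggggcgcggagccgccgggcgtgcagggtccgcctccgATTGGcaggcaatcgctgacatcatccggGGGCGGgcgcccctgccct
HMGCS1 had 2 NF-Y boxes in this window, IDI1 had 3, INSIG1 had 1, LSS had 1 and DHCR7 had 2. GC boxes numbered 2 in HMGCS1, 2 in IDI1, 5 in INSIG1, 6 in LSS and 4 in DHCR7. In IDI1, NF-Y boxes on opposite strands share 2 bases, and in INSIG1 neighbouring GC boxes share 1 base. Over all 10 windows that RefSeq gives for 6 of the genes, FDPS included, 70% held CCAAT and 90% held GGGCGG, against 32% and 42.6% of all 35116 windows. Neither the sterol regulatory element searched as TCACNCCAC nor the TEAD motif GGAATG was in any of the 10 windows, and 0.883% and 11.9% of all windows held them. These letters were the only forms searched, within 250 bases of a start, and a match is a description of the sequence alone. Genes that stood lower with GLUP (HMGCS1, IDI1, INSIG1) and genes that stood higher (LSS, DHCR7) both carried NF-Y and GC boxes.

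The 8 genes covered a wide range of levels. FDPS was by far the highest, with a mean of 368 FPKM over the 4 libraries, and it made up between 74.2% and 84.7% of their summed FPKM. SQLE (41.3 FPKM) and FDFT1 (27.7 FPKM) followed, then IDI1 (9.56 FPKM), HMGCS1 (5.37 FPKM), DHCR7 (2.24 FPKM), LSS (1.10 FPKM) and INSIG1 (0.987 FPKM). Over the 4 libraries, the range of FDPS lay wholly above that of SQLE, and the range of FDFT1 wholly above that of IDI1. The ranges of all other neighbours in this order overlapped. INSIG1 alone had a mean under 1 FPKM, so 7 of the 8 genes entered the main test.

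In the main test (limma, Benjamini-Hochberg adjustment over the 7588 genes), 0 of the 7 genes had an adjusted p under 0.05, where 0.0264% of all genes tested did. At an unadjusted p under 0.05, 1 of the 7 (IDI1) was lower and 0 were higher, against 25.4% lower and 6.37% higher among all genes. For SQLE, LSS and DHCR7 both GLUP libraries lay above both controls, a pattern of 17.5% of all genes tested. For HMGCS1 and IDI1 both lay below, as for 49.7%. FDPS and FDFT1 overlapped, as did 32.8%, and in both the GLUP mean lay between the controls, as in 22.4%. With 2 libraries against 2, no permutation of the libraries can give a two-sided p below 0.333, so no such test was made.

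**Figure D1:**
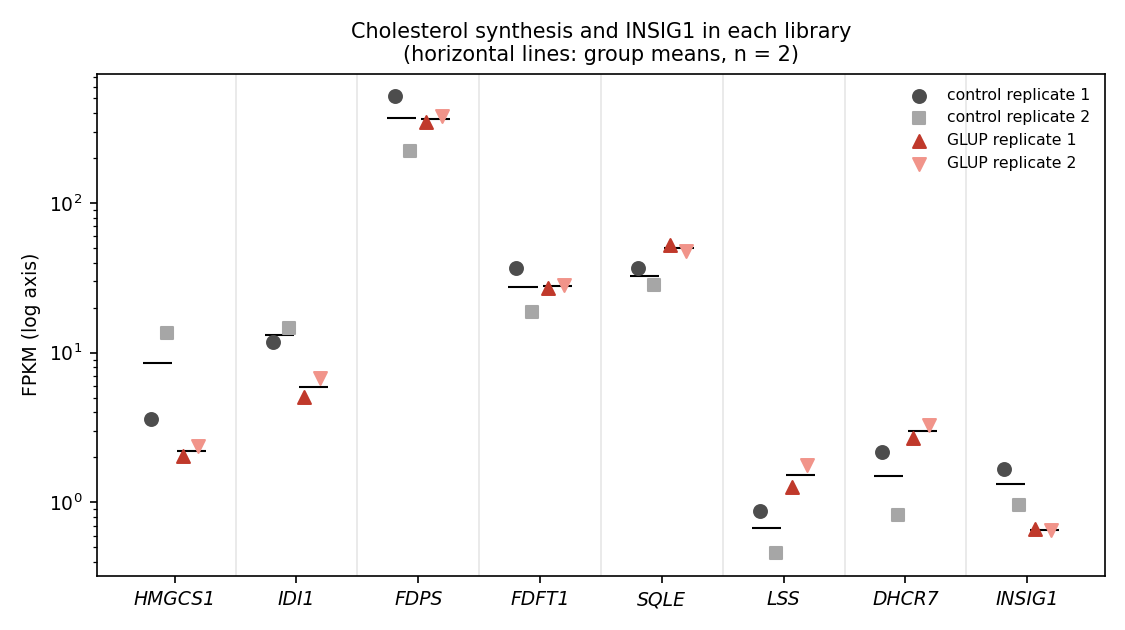
FPKM (vertical log axis) of each of the 8 genes in the 4 libraries, with circles and squares for control replicates 1 and 2, triangles for GLUP, and lines at the group means (n = 2). HMGCS1, IDI1 and INSIG1 have both GLUP libraries below both controls, SQLE, LSS and DHCR7 have them above, and FDPS and FDFT1 have them between the controls.

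HMGCS1 (HMG-CoA synthase 1, ENSG00000112972), on chromosome 5 of GRCh37 from 43287572 to 43313614, condenses acetyl-CoA with acetoacetyl-CoA at the entry to the pathway. It stood at 3.59 and 13.5 FPKM in control replicates 1 and 2 and at 2.05 and 2.38 FPKM in GLUP replicates 1 and 2. Control replicate 2 was far above the other 3 libraries, while control replicate 1 stood close to the GLUP libraries. The means were 8.53 ± 6.99 FPKM (SD, n = 2) in control cells and 2.21 ± 0.233 FPKM (SD, n = 2) with GLUP. The log2 fold change was −1.34 (standard error, SE, 0.56, 95% interval −2.72 to 0.03, limma adjusted p = 0.163). The mean with GLUP was 1.62-fold below control replicate 1 and 6.09-fold below control replicate 2, so the size of the difference depended on the control used.

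IDI1 (ENSG00000067064), on chromosome 10 from 1085092 to 1095059, isomerises isopentenyl diphosphate, the building block of all isoprenoids. Its FPKM was 11.7 and 14.7 in the controls versus 5.08 and 6.74 in the GLUP libraries. Both controls were well above both GLUP libraries, and the gap between the groups was wider than the spread within either. The means were 13.2 ± 2.11 and 5.91 ± 1.18 FPKM (SD, n = 2 each). IDI1 had the smallest p of the 7 genes, with a log2 fold change of −1.04 (SE 0.32, 95% interval −1.83 to −0.26, limma adjusted p = 0.111). Against control replicates 1 and 2 alone, GLUP was 1.98-fold and 2.49-fold lower.

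FDPS (farnesyl diphosphate synthase, ENSG00000160752), on chromosome 1 from 155278539 to 155290457, makes the branch-point molecule from which sterols, dolichol, ubiquinone and protein prenyl groups derive. It stood at 516 and 222 FPKM in the controls versus 349 and 384 FPKM with GLUP. The GLUP libraries fell between the controls, which differed 2.32-fold from each other. The group means, 369 ± 208 FPKM in control cells and 367 ± 24.6 FPKM with GLUP (SD, n = 2 each), were nearly equal. The log2 fold change of 0.11 had a 95% interval from −1.03 to 1.26 (limma adjusted p = 0.876), so these libraries leave a 2-fold change in either direction within the interval. FDPS shares 693 exonic bases with RUSC1-AS1 on the opposite strand, at 0.473 to 1.79 FPKM, and 8 pseudogenes named after it did not exceed 0.182 FPKM.

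FDFT1 (squalene synthase, ENSG00000079459), on chromosome 8 from 11653082 to 11696904, commits farnesyl diphosphate to sterols. It showed the same arrangement as FDPS at a lower level, with 36.6 and 18.7 FPKM in the controls versus 27.1 and 28.4 FPKM with GLUP. The means of 27.6 ± 12.7 and 27.7 ± 0.908 FPKM (SD, n = 2 each) were again nearly equal. Its log2 fold change was 0.08 (SE 0.41, 95% interval −0.94 to 1.10, limma adjusted p = 0.903).

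SQLE (squalene epoxidase, ENSG00000104549), on chromosome 8 from 126010739 to 126034525, carries out the first oxygenation and is a rate-limiting step. Its FPKM was 36.8 and 28.2 in the controls versus 52.3 and 47.9 in the GLUP libraries. Both GLUP libraries were above both controls. The means were 32.5 ± 6.06 FPKM in control cells and 50.1 ± 3.18 FPKM with GLUP (SD, n = 2 each), 1.54-fold higher. The log2 fold change of 0.62 (SE 0.33, 95% interval −0.20 to 1.44) had a limma adjusted p of 0.239.

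LSS (lanosterol synthase, ENSG00000160285), on chromosome 21 from 47608055 to 47648738, folds squalene epoxide into lanosterol, the first sterol. It was weakly expressed, at 0.879 and 0.460 FPKM in the controls versus 1.27 and 1.79 FPKM with GLUP. The groups did not overlap, and the mean with GLUP was 2.28 times the control mean (1.53 ± 0.367 against 0.669 ± 0.296 FPKM, SD, n = 2 each). At this level the log2(FPKM + 1) scale understates the change, and the log2 fold change was 0.60 (SE 0.26, 95% interval −0.03 to 1.24, limma adjusted p = 0.172).

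DHCR7 (7-dehydrocholesterol reductase, ENSG00000172893), on chromosome 11 from 71139239 to 71163914, converts 7-dehydrocholesterol to cholesterol. It stood at 2.17 and 0.822 FPKM in the controls versus 2.70 and 3.26 FPKM with GLUP. Control replicate 1 was close to GLUP replicate 1, and control replicate 2 was lowest. The means were 1.49 ± 0.952 and 2.98 ± 0.398 FPKM (SD, n = 2 each), and the log2 fold change was 0.73 (SE 0.34, 95% interval −0.12 to 1.57, limma adjusted p = 0.198). GLUP was 1.38 times control replicate 1 and 3.63 times control replicate 2.

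INSIG1 (ENSG00000186480), the sterol-dependent brake on SREBP, lies on chromosome 7 from 155089486 to 155101945. Its values were 1.67 and 0.964 FPKM in the controls versus 0.661 and 0.656 FPKM in the GLUP libraries. The GLUP libraries were nearly identical and both below the controls, which differed 1.73-fold. The control mean of 1.32 ± 0.498 FPKM was 2.00 times that with GLUP (0.659 ± 0.00361 FPKM, SD, n = 2 each). In a fit of all 28873 genes above 0 in any library, where 0% of genes had an adjusted p under 0.05, its log2 fold change was −0.47 (SE 0.23, 95% interval −1.09 to 0.16, limma adjusted p = 0.493). Its direction was opposite to that of SQLE, LSS and DHCR7 and the same as that of HMGCS1 and IDI1.

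Each control library was also set against the GLUP mean alone. Against control replicate 1, GLUP was higher for 3 of the 7 genes tested (SQLE, LSS, DHCR7) and lower for 4, where 27.8% of all genes were higher and 72.1% lower. Against control replicate 2 it was higher for 5 and lower for 2, where 37.5% of all genes were higher and 62.4% lower. The genes that changed side were FDPS, with differences of −0.49 and 0.72 on the log2 scale, and FDFT1, with −0.39 and 0.55. HMGCS1 kept its sign at −0.52 and −2.17, IDI1 at −0.89 and −1.20, SQLE at 0.44 and 0.81, LSS at 0.42 and 0.78, DHCR7 at 0.33 and 1.12, and INSIG1, outside the 7, at −0.69 and −0.24. Control replicate 2 was below control replicate 1 for 6 of the 8 genes, and above it for HMGCS1 and IDI1, 2 of the 7 tested, where it was above for 46.1% of all genes.

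The choice of control also decided the calls. With control replicate 1 left out, 6 of the 7 genes passed in limma, with adjusted p between 0.00307 (HMGCS1) and 0.0349 (LSS), and FDFT1 did not (adjusted p = 0.0590). In that fit the single control is assumed to vary as the GLUP libraries do, and 53.2% of all genes tested passed. With control replicate 2 left out, 0 of the 7 genes and 18.7% of all genes passed.

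**Figure D2:**
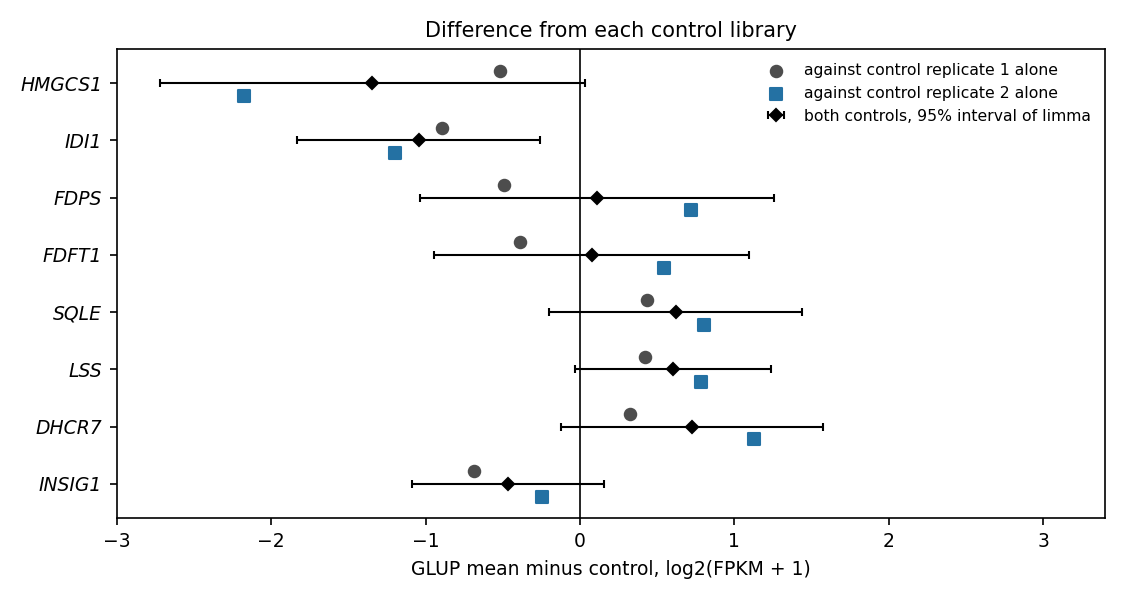
Difference of the GLUP mean from the control, in log2(FPKM + 1) (horizontal axis), for each of the 8 genes. Circles are against control replicate 1 alone, squares against control replicate 2 alone, and diamonds with bars are limma's estimate from both with its 95% interval, which for INSIG1 comes from the fit of all genes above 0. FDPS and FDFT1 lie on opposite sides of 0 with the 2 controls, and only for IDI1 does the interval leave out 0.

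The other enzymes of the pathway were taken from a list of 20 sterol synthesis genes that includes 7 of the 8 genes. Of its 19 genes tested, 0 had an adjusted p under 0.05 in either direction in limma, and 5 had an unadjusted p under 0.05, all lower with GLUP (ACAT2, IDI1, MSMO1, HSD17B7 and SC5D), a share close to the 25.4% of all genes that were lower at that p, where 6.37% were higher. Both GLUP libraries lay above both controls for 5 (PMVK, MVD, SQLE, LSS and DHCR7) and below for 6, while 8 overlapped, where 17.5%, 49.7% and 32.8% of all genes did. The median log2 fold change of the 19 was −0.11, against −0.36 for all genes tested. ACAT2, the cytosolic enzyme that makes acetoacetyl-CoA just before HMGCS1, was at 123 and 122 FPKM in the controls versus 39.2 and 47.2 FPKM with GLUP. The controls were less than 1 FPKM apart and were 2.83-fold above the GLUP mean, with a log2 fold change of −1.49 (SE 0.32, limma adjusted p = 0.10).

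PMVK and MVD, which act between mevalonate and IDI1, had higher values with GLUP. PMVK stood at 7.70 and 3.48 FPKM in the controls versus 10.5 and 10.0 FPKM with GLUP, and MVD, which makes isopentenyl diphosphate, at 1.45 and 0.744 against 2.65 and 2.01 FPKM. Neither passed the adjusted threshold (limma adjusted p = 0.196 and 0.165). MVK was listed at 0 in both controls and at 0.316 and 0.146 FPKM with GLUP. After lanosterol, the demethylation enzyme MSMO1 was at 17.3 and 13.5 against 7.05 and 7.78 FPKM, and HSD17B7, a sterol ketoreductase, at 8.56 and 10.2 against 5.46 and 3.85 FPKM. SC5D, which makes the substrate of DHCR7, was at 5.85 and 4.03 against 1.41 and 1.72 FPKM. SC5D and DHCR7, neighbours in the pathway, thus lay on opposite sides, with log2 fold changes of −1.20 and 0.73. With the trend with GC content removed, these were −0.38 and 0.32. PMVK then stood at 0.41, MVD at 0.12, MSMO1 at −0.16, HSD17B7 at −0.23 and ACAT2 at −0.85. For CYP51A1 the difference rested on control replicate 1, at 5.85 FPKM, since control replicate 2 was at 0.344 and the GLUP libraries at 0.417 and 0.0352 FPKM.

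**Figure D3:**
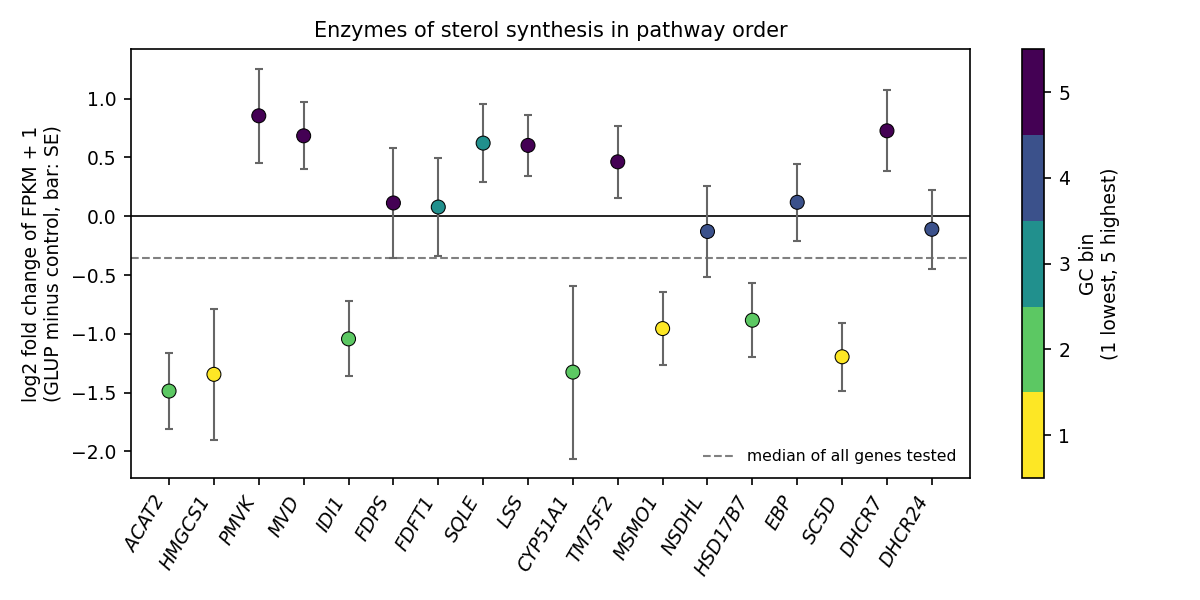
log2 fold change of FPKM + 1 (GLUP minus control, bars are standard errors from limma) for 18 of the 19 sterol synthesis genes tested, in pathway order from left to right, coloured by bin of transcript GC content (bin 1 lowest, bin 5 highest). The dashed line is the median of all genes tested (−0.36), and the 6 genes with both GLUP libraries below both controls are all in bins 1 and 2.

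Uptake and feedback genes were mostly near or below 1 FPKM. NPC2, which moves cholesterol out of lysosomes, was abundant, at 190 and 197 FPKM in the controls versus 91.7 and 85.0 FPKM with GLUP (log2 difference −1.12, SE 0.31, limma adjusted p = 0.103). The sterol carrier STARD4 stood at 6.09 and 6.32 against 2.00 and 2.91 FPKM. Of the 9 uptake and transport genes, 4 were tested, 0 passed the adjusted threshold, and 1 had both GLUP libraries above and 3 below both controls, as did 17.5% and 49.7% of all genes. The median log2 fold change of these 4 genes was −0.60, and 0.11 with the trend of the values with transcript GC content removed. With it removed, NPC2 went from −1.12 to −0.60 and STARD4 from −1.07 to −0.20. The lysosomal exporter NPC1, below the mean of 1 FPKM, was at 0.869 and 0.416 against 1.26 and 1.37 FPKM.

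Of the 7 SREBP control genes, MBTPS1 alone was tested, and its groups overlapped. SREBF2, the main activator of cholesterol synthesis, was at 0.997 and 0.756 FPKM in the controls versus 0.668 and 0.713 FPKM with GLUP. SREBF1 was at 0.0518 and 0.146 against 0.564 and 0.399 FPKM, and SCAP at 0.326 and 0.177 against 0.417 and 0.449 FPKM. INSIG2, the relative of INSIG1, stood at 0.720 and 1.80 against 0.168 and 0.431 FPKM. Both INSIG genes had both GLUP libraries below both controls, as did SREBF2 and MBTPS2, while SREBF1 and SCAP had them above. Of all genes tested, 49.7% were below and 17.5% above, and no share was taken for genes under 1 FPKM.

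Beyond farnesyl diphosphate, 5 of the 7 genes of the other branches were tested, and all 5 had both GLUP libraries below both controls (49.7% of all genes tested did). GGPS1, which makes geranylgeranyl diphosphate, was at 16.3 and 14.3 against 5.77 and 5.52 FPKM, and FNTA, a subunit of the prenyl transferases, at 8.67 and 10.6 against 3.83 and 2.88 FPKM (limma adjusted p = 0.10 for each). The other 3 (DHDDS, PDSS1 and PDSS2) had log2 fold changes between −0.56 and −0.26, and 0 of the 5 passed the adjusted threshold. With the trend with GC content removed, these 3 lay between −0.02 and 0.04, GGPS1 at −0.59 and FNTA at −0.54, and the median of the 5 moved from −0.56 to −0.02.

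The sign and size of the differences varied with GC content, measured on the longest transcript, across all genes tested. For comparison, genes were sorted by GC content into 5 bins of 1514. Across all genes tested, the fold change and GC content had a Spearman rho of 0.58, and the difference of control replicate 2 from control replicate 1 had a rho of −0.42, both as descriptions across genes that share the same 4 libraries. In the bin with the lowest GC content, 80.4% of genes had both GLUP libraries below both controls, and in the highest bin 11.5% did. HMGCS1 (39.0% GC) and IDI1 (41.1%) were in the lowest 2 bins, whose median log2 fold changes were −0.78 and −0.64. FDPS (56.0%), LSS (58.1%) and DHCR7 (58.1%) were in the highest, with a median of 0.44. SQLE (46.5%) and FDFT1 (47.0%) were in the middle bin, with a median of −0.41, so that SQLE stood 1.03 above and FDFT1 0.49 above the median of their bin. Of the 8 sterol synthesis genes in the lowest 2 bins, 6 had both GLUP libraries below both controls and 0 above. In those bins 80.4% and 70.5% of all genes were below, and 2.25% and 3.90% above. Of the 11 in the other bins, 0 were below and 5 above. In those 3 bins, from lower to higher GC content, 54.6%, 31.4% and 11.5% of all genes were below, and 9.05%, 25.2% and 47.3% above. The part of GC content in these differences was not tested, beyond its removal from each library.

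With the GC trend removed from each library, the log2 fold change shrank to −0.60 for HMGCS1, −0.37 for IDI1, 0.20 for LSS and 0.32 for DHCR7, grew to 1.01 for SQLE and 0.44 for FDFT1, and changed sign to −0.17 for FDPS. Both GLUP libraries then stayed above both controls for SQLE and DHCR7 and below for IDI1, patterns that 28.3% and 27.9% of all genes showed, while HMGCS1 and LSS overlapped. For INSIG1 (44.8% GC) the log2 fold change was −0.47 before and −0.40 after removal, in the fit of all genes above 0. There the trend was taken over genes with a median log2 fold change of −0.02, against −0.36 for the genes tested. The INSIG1 value therefore does not compare with those above. Tested genes with a GC content of 44.1% to 49.0% had a median of −0.41 before removal.

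**Figure D4:**
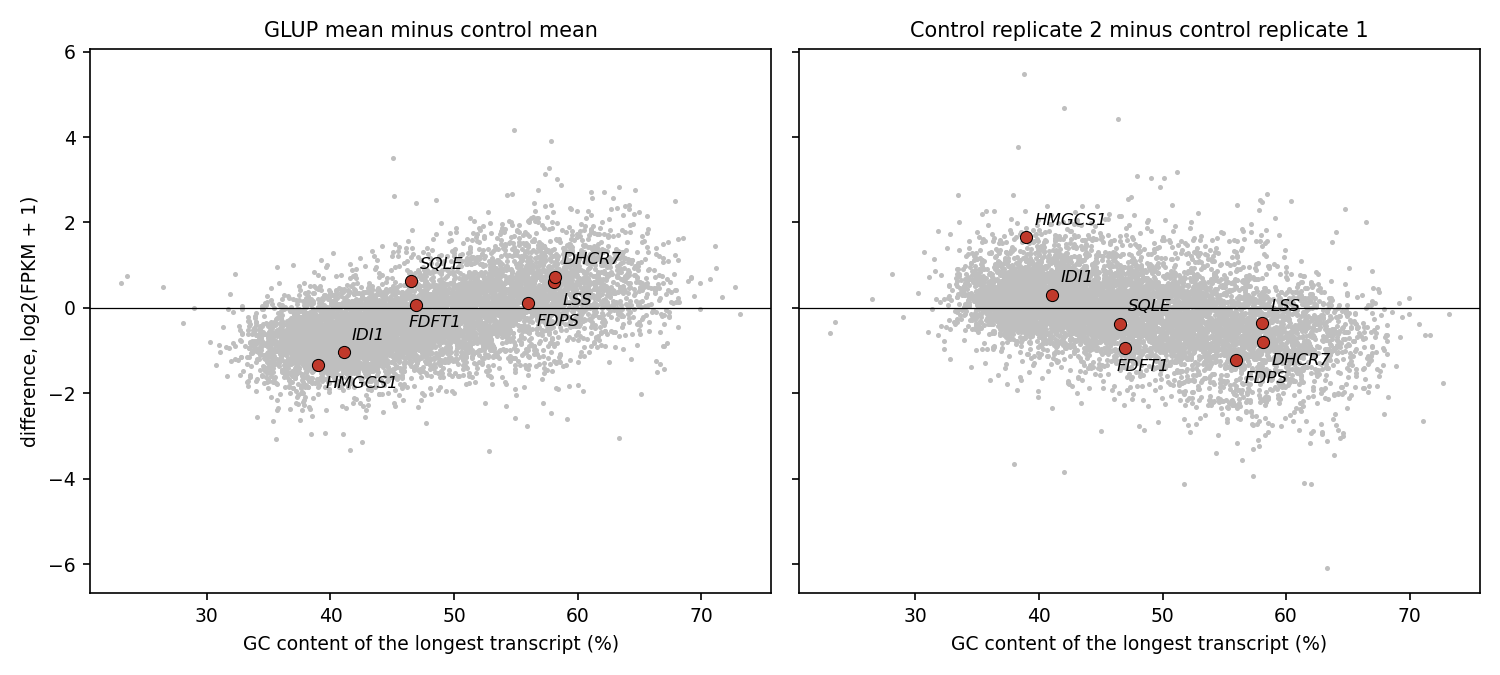
Difference in log2(FPKM + 1) (vertical axis) against GC content of the longest transcript in percent (horizontal axis), for all genes tested with a GC value (grey) and the 7 tested genes of the pathway (red). Left, the GLUP mean minus the control mean is higher at higher GC, with HMGCS1 and IDI1 at the low end. Right, control replicate 2 minus control replicate 1 runs the other way, with HMGCS1 at 1.66 and FDPS at −1.21.

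The mean profile of the 8 genes was nearly flat, since they went both ways. On the log2 scale it stood at 0.18 above its own mean in control replicate 1, and at −0.09, −0.11 and 0.02 in control replicate 2 and GLUP replicates 1 and 2. The 5 tested genes closest to it over the 4 libraries were FARS2, SGK1, RNPEP, LYSET and FBXL5, with Euclidean distances between 0.0280 and 0.0463 on that scale. Among the 8 genes, the antisense or overlapping transcripts that share exonic bases with HMGCS1, IDI1, FDFT1 and LSS did not exceed 0.428 FPKM in any library, and 3 pseudogenes named after IDI1 were listed at 0. Whether the counting used strand is not given in the sources used here.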

How the data were processed

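RNA-seq libraries of HGC-27 cells, 2 per group, were used. The authors deposited FPKM values per gene, made on the Majorbio platform. The submitters' processing notes name HISAT2, Cufflinks and RSEM without versions or roles, and the build GRCh38.p10, whereas the row IDs have the form GENCODE uses for annotation lifted to GRCh37, so the build is uncertain. The 62492 rows were summed by gene ID, and 99.55% of the IDs matched a symbol. Gene positions, lengths and GC content come from GENCODE lifted to GRCh37, promoters from RefSeq.

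Genes averaging 1 FPKM or more were tested as log2(FPKM + 1) with limma 3.58.1 in R 4.3.3 (mean-variance trend, Benjamini-Hochberg adjustment), after a check on simulated data. INSIG1 was fitted with all genes above 0. GC trends were removed with lowess (span 0.3), which also takes out the overall shift of each library, and 7570 genes had a GC value. Members, gene lists and tests were chosen with earlier results of these data known. Named genes are the 8 members, list members (those under 1 FPKM that are named were chosen after their values were seen) and the 5 nearest profiles. Of the cell type markers, PECAM1 was not matched. Values of some list genes are not reported here. FPKM gives no counting precision.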

Additional observations from a re-analysis of the deposited data

How the results depend on the processing

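With the settings used, limma with Benjamini-Hochberg adjustment gave 2 genes of the whole table and 0 of the 7 pathway genes with an adjusted p under 0.05. The count over the table was 1 with quantile normalization, with median centring and with 0.1 as the pseudocount, and 16 with the GC trend removed and the replicate number as a block. It dropped to 0 after GC correction, without the variance trend, with genes averaging 5 FPKM or more and with every gene above 0, where 1388, 2378, 1174 and 3744 genes had an unadjusted p under 0.05. With one library left out in turn it ran from 4 to 4038, and the count of pathway genes from 0 to 6, where 6 came without control replicate 1. The log2 fold changes with one library left out ran from −2.17 to −0.52 for HMGCS1, −1.22 to −0.87 for IDI1, −0.49 to 0.72 for FDPS, −0.39 to 0.55 for FDFT1, 0.44 to 0.81 for SQLE, 0.42 to 0.78 for LSS, 0.33 to 1.12 for DHCR7 and −0.69 to −0.24 for INSIG1. FDPS was reversed to −0.17 with the GC trend removed, with or without the block, and no other member reversed outside the left-out controls. The number of members whose groups did not overlap, 5 of 7, was 3 among genes averaging 5 FPKM or more, where 5 members were tested, and 3 with the GC trend removed, with or without the block. The median log2 fold change of the 7 members, 0.11, was 0.43 with quantile normalization and 0.46 with median centring, and ran from −0.39 to 0.72 with one library left out. That of the sterol synthesis list, −0.11, was reversed to 0.23 with centring and 0.24 with quantile normalization, which shift all genes, and ran from −0.49 to 0.25 with one library left out. The replicate numbers share nothing but a number in the labels. The deviations of equal numbers from their group means correlated at 0.13 across genes, and with 2 pairs this does not show a pairing. With the replicate block, 2 genes of the table and 0 members passed, as without it. FPKM hold no depth, so precision for LSS and INSIG1, near 1 FPKM, cannot be stated.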

Other observations

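Fatty acid synthesis, the branch of lipid synthesis under SREBP1, was low or mixed. Of 8 genes, 5 were tested, 0 had an adjusted p under 0.05 in limma and 0 an unadjusted p under 0.05, where 25.4% of all genes were lower and 6.37% higher at that p. SCD, the desaturase that makes oleic acid, was at 11.6 and 9.96 FPKM in the controls versus 16.2 and 13.4 FPKM with GLUP, and ACLY, which supplies cytosolic acetyl-CoA, at 6.60 and 6.07 against 4.40 and 3.82 FPKM. FASN did not exceed 0.101 FPKM in any library. ELOVL6 stood at 1.82 and 1.84 against 1.20 and 0.342 FPKM, with control libraries that nearly coincided and GLUP libraries that did not. With the GC trend removed, its log2 fold change went from −0.72 to −0.06. That of SCD went from 0.42 to 0.81, and that of ACLY from −0.52 to −0.54.

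Of 6 genes of sterol efflux, esterification and the LXR receptors, 2 were tested and 0 passed. NR1H3, which encodes LXR alpha, was at 1.02 and 1.01 FPKM in the controls versus 1.74 and 1.68 FPKM with GLUP (log2 difference 0.43, SE 0.23, limma adjusted p = 0.236). MYLIP, an LXR target that encodes a ubiquitin ligase, was at 4.38 and 4.32 against 3.45 and 3.48 FPKM. The replicates of both genes lay close together in each group, and the groups did not overlap. GLUP was above for NR1H3, as for 17.5% of all genes, and below for MYLIP, as for 49.7%. The log2 fold change of MYLIP was −0.26, where the median of all genes tested was −0.36. With the GC trend removed, MYLIP changed sign to 0.11 and NR1H3 stood at 0.18.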
